A study of Mus musculus with 2 samples.

Results

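Immediate early and heat shock genes were followed through the cells of mouse melanomas grown in wild type (WT) or Siah2-/- hosts. The members were 34 genes taken by symbol: 29 immediate early genes and partners induced with them, and 5 heat shock or chaperone genes (Hspa1a, Hspa1b, Hspa8, Hsph1 and Dnajb1). The unfiltered matrices held all 34 of them among 27998 genes, and the table of raw counts held 33 among 14654, without Egr3. Tumors of the melanoma line YUMMER1.7 had grown subcutaneously for 11 days in male C57BL/6 mice, 8 weeks of age, of either genotype. The hosts carried the Siah2 genotype and the engrafted tumor line was the same in both groups, so tumor cells of both libraries came from 1 line while infiltrating cells differed in genotype. Each genotype was 1 single-cell library, made from sorted live CD45+ cells to which CD45- cells had been mixed back, although the label names CD45+ cells alone. There is no replicate: host genotype, tumor pool, cell suspension, library and sequencing lane cannot be told apart, and every interval given here is a 95% interval of counting error only.

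Immediate early genes are transcribed within minutes of a stimulus, with no need for new protein. Many encode transcription factors (the Fos and Jun families, Egr, Klf and Nr4a proteins), and others encode the phosphatases, RNA-binding proteins and inhibitors that shut the same signals down. Heat shock genes are switched on by the factor Hsf1 when proteins unfold: Hspa1a and Hspa1b encode inducible Hsp70, whereas Hspa8 encodes the Hsp70 present at all times. Both programmes are known to respond in living cells to enzymatic digestion of a tissue at body temperature, the way these tumors were dissociated, and also to antigen receptor signals, cytokines and stress inside a tumor. A difference in dissociation or handling between the 2 suspensions cannot be told apart from genotype here.

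The WT library held 4512 cells with 64793053 unique molecular identifiers (UMIs, counts of captured mRNA molecules), and the Siah2-/- library 5563 cells with 59090284. The median cell had 11439.5 UMIs in WT and 8700 in Siah2-/-, the shallowest cells 6670 and 4896, and the median mitochondrial share was 1.55% and 1.33%. A total of 34 cell barcodes occurred in both libraries. Siah2 itself was at 10.2 CPM (UMIs of a gene scaled to 1000000 UMIs of the cells counted) in WT and 8.55 in Siah2-/- cells; a 3′ tag outside the deleted part would not check the genotype. Barcodes were sorted by marker UMIs, none from a member gene, into CD8 T cells (460 WT and 849 Siah2-/- barcodes), regulatory T cells (Treg, Foxp3 with T cell markers, 63 and 77), NK cells (382 and 620), macrophages (1867 and 2087), dendritic cells (DC, 100 and 115) and CD45-negative cells (655 and 88). In the CD45-negative class, collagen genes were high (Col1a2 at 1387 and 1583 CPM) and the melanocyte markers Mlana and Sox10 had no UMI, so the class is called by its gate. Cells carrying a cycling marker (Mki67 or Top2a) made up 56.7% of WT and 30.3% of Siah2-/- CD8 T cells, 65.1% and 32.5% of Treg, 27.5% and 19.2% of NK cells, 21.5% and 11.2% of macrophages, 23% and 6.09% of DCs, and 61.8% and 64.8% of CD45-negative cells. Counts and medians that moved without such cells are given with that value, and the part of cycling cells in the results was not tested further.

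The upstream sequences of the members that results turn on most are shown first, because the 2 regulatory elements long tied to these programmes can be read in them. In each, the 250 bases before the annotated start (for Dusp1, 250 to 51 bases before it) are printed 5′ to 3′ on the gene's own strand, from the RefSeq promoter table of GRCm38.p6. They lie at chr12:85473640-85473889 (Fos, plus strand), chr17:26508523-26508722 (Dusp1, minus), chr1:134079156-134079405 (Btg2, minus), chr17:34972157-34972406 (Hspa1a, minus) and chr17:34959239-34959488 (Hspa1b, minus). Capitals mark TGACG and the complete cAMP response element TGACGTCA in Fos, Dusp1 and Btg2, and the paired heat shock letters GAANNTTC in Hspa1a and Hspa1b, as read on the printed strand.
Fos: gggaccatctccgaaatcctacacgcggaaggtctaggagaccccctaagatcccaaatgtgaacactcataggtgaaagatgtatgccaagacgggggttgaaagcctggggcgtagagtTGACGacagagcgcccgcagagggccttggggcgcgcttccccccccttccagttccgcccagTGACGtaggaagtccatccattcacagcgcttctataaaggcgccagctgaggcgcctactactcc
Dusp1: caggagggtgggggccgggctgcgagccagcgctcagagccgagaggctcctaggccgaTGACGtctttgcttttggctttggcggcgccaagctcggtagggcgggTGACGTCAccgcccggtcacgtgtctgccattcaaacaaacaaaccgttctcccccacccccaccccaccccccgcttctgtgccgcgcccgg
Btg2: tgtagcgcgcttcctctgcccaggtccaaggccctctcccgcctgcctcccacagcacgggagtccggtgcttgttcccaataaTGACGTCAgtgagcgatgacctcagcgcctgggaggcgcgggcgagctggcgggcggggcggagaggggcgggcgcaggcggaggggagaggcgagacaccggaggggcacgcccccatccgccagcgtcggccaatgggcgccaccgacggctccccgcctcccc
Hspa1a: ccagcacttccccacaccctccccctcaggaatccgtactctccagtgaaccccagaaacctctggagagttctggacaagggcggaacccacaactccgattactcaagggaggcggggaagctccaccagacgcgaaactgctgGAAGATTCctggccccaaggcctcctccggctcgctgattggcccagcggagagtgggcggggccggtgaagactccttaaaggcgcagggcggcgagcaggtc
Hspa1b: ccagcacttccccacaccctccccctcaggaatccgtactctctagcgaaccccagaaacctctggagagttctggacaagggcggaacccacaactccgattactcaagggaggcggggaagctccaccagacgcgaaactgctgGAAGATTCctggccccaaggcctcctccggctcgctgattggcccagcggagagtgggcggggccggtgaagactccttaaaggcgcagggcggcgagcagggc

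In all, 29 of the 34 members had an entry in that table, against 27025 genes. TGACG on either strand was in 14 of the 29 (48.3%, against 19.8% of all genes), and 6 of the 11 members that were higher in every class held it. The complete TGACGTCA was in 2 of the 29, Dusp1 and Btg2 (6.9%, against 1.77%). The heat shock letters GAANNTTC or TTCNNGAA were in 5 of the 29 (17.2%, against 14.5%): Hspa1a, Hspa1b, Hsph1, Jun and Egr2. A CArG box, where serum response factor binds, was in Egr2, Dusp5 and Zfp36 (10.3%, against 1.62%), CCAAT in 15 (51.7%, against 37.5%) and TATAAA in 5 (17.2%, against 14.3%). The letters TGACTCA or TGAGTCA, which AP-1 proteins bind, were in 0 of the 29 (against 5.16%). These matches describe the letters in this window and nothing about the factors. TGACG is part of TGACGTCA, so the first 2 counts overlap.

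Across the list, the median member was higher in the Siah2-/- library in every class of cells, and the inducible Hsp70 gene Hspa1a was higher by at least 2-fold in all 6, or in 4 with free RNA of the suspension subtracted. Its Treg value rested mainly on 1 cell in each library and turned without cycling cells. Its CD8 T cell ratio was also below 2-fold with the same lowest UMI count in both libraries or with gate minimums doubled. With every cell thinned to 4000 UMIs, its CD8 T cell and Treg ratios were below 2-fold. In CD8 T cells 14 of the 33 members with at least 10 UMIs over both libraries were 2-fold or more higher and 1, Egr2, was lower by about that much; of all 11126 genes passing the same filter, 5.65% were higher and 2.89% lower. In NK cells the members gave 15 of 33 higher and 0 lower, against 6.93% and 1.91% of all genes. Macrophages had 11 of 33 higher and 0 lower, where 6.36% and 4.39% of all genes passed those folds. For DCs the counts were 8 of 32 and 0, beside 7.72% and 6.00%. For CD45-negative cells they were 5 of 32 and 0, beside 6.77% and 5.30%, and for Treg 6 of 30 and 1, beside 7.37% and 9.33%. Without cycling cells the members 2-fold higher numbered 9 in CD8 T cells and 3 in CD45-negative cells, beside 6.09% and 5.89% of all genes, and those 2-fold lower 5 in Treg, beside 9.33%, and 1 in DCs, beside 5.14%. Over all barcodes of at least 1000 UMIs 7 were higher in macrophages and 10 in CD45-negative cells, beside 5.90% and 7.06%, and thinning left 2 in CD45-negative cells, beside 6.61%. Without the 1% of cells with most UMIs of a gene 10 were higher in Treg. No share of all genes is given for that setting, so this count is not read further. Median log2 ratios of Siah2-/- over WT were 0.61 in Treg, 0.67 in CD45-negative cells, 0.70 in macrophages, 0.75 in DCs, 0.81 in CD8 T cells and 0.93 in NK cells, whereas the medians of all genes lay between -0.04 and 0.08. The CD45-negative median was 0.39 without cycling cells. The immediate early members carried this: their medians ran from 0.67 in CD45-negative cells to 0.93 in NK cells, and those of the 5 heat shock members from 0.05 in Treg to 0.47 in NK cells.

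**Figure D1:**
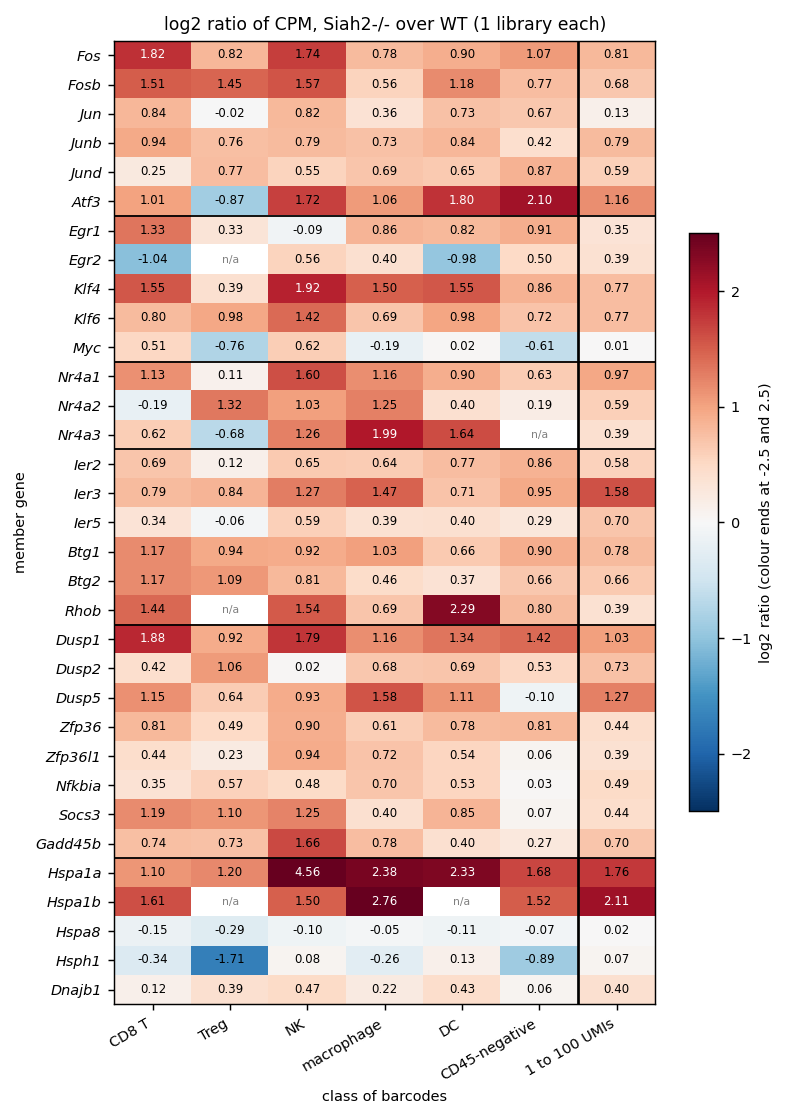
Heat map of the log2 ratio of Siah2-/- over WT CPM for 33 members (rows) in 6 classes of cells and in barcodes of 1 to 100 UMIs (columns), red higher and blue lower in Siah2-/-, with cells below 10 UMIs over both libraries left grey. Most rows are red throughout, the Hspa1a row reaches 4.56 in NK cells, and the rows of Hspa8, Hsph1 and Myc hold most of the blue.

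A gene was counted as higher in every class where its ratio lay above 0 beyond the counting interval in each class in which it passed the filter (at least 4 classes). This held for 11 members: Fos, Fosb, Junb, Jund, Btg1, Btg2, Dusp1, Klf6, Zfp36, Rhob and Hspa1a, all in 6 classes except Rhob, which passed in 5. Among all 10210 genes that could meet the rule, 1.47% did. Without cycling cells 5 members met it, beside 0.809% of 9391 genes, and with all barcodes of at least 1000 UMIs 18 did, beside 1.5% of 10675. Hspa8 was the 1 member lower in every class, a property of 1.79% of those 10210 genes. It stayed below 0 but was within counting error in 1 or 2 classes without cycling cells, over all barcodes of at least 1000 UMIs, with cells thinned to 4000 UMIs or with cells weighted equally. The other 22 members split between classes or were within counting error in at least 1. Among them Egr3 passed nowhere, with 0 to 3 UMIs in any class of either library.

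The AP-1 members are described first. Fos, which pairs with Jun proteins to form the transcription factor AP-1, was at 80.1 CPM in WT CD8 T cells, 348 in Treg, 113 in NK cells, 1387 in macrophages, 707 in DCs and 639.5 in CD45-negative cells, and in the Siah2-/- library at 282, 614, 375, 2389, 1323 and 1344 CPM. Siah2-/- was the higher library in all 6 classes, and no pair of counting intervals overlapped. The log2 ratio was 1.82 (1.67 to 1.97) in CD8 T cells and 1.74 (1.59 to 1.89) in NK cells, and 0.78 (0.76 to 0.81) in macrophages. Macrophages had the highest Fos level and CD8 T cells the lowest in both libraries, and the ratios were largest in CD8 T and NK cells. In Siah2-/-, DCs and CD45-negative cells did not differ beyond their counting intervals. The Treg ratio, 0.82, was -0.085 without cycling cells.

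Fosb went from 18.7 to 53.2 CPM in CD8 T cells (log2 ratio 1.51), from 16.4 to 48.6 in NK cells and from 74.8 to 109.9 in macrophages (0.56). Junb, the AP-1 partner abundant in activated lymphocytes, was higher by 0.94 in CD8 T cells and 0.42 in CD45-negative cells, the ends of its range. Jund ranged from 0.25 in CD8 T cells (0.16 to 0.33) to 0.87 in CD45-negative cells (0.78 to 0.95). These 3 were higher in all 6 pooled classes, with class ratios that differed beyond counting error.

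Jun gave another picture. In WT, Jun was at 76.5 CPM in CD8 T cells, 165 in Treg, 158 in NK cells, 456 in macrophages, 309.7 in DCs and 1205 in CD45-negative cells, and in Siah2-/- at 137, 163, 279, 583, 513 and 1913. Levels were higher in Siah2-/- in every class other than Treg, where the 2 intervals overlapped. Ratios were 0.82 (0.68 to 0.96) in NK cells, 0.84 (0.67 to 1.01) in CD8 T cells, 0.73 (0.54 to 0.92) in DCs, 0.67 (0.62 to 0.72) in CD45-negative cells, 0.36 (0.32 to 0.39) in macrophages and -0.02 (-0.41 to 0.38) in Treg. No class reached 2-fold.

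Atf3, a stress-induced repressor of the ATF family, was at 9.05 CPM in WT CD8 T cells, 25.9 in Treg, 11.0 in NK cells, 114.5 in macrophages, 55.9 in DCs and 5.68 in CD45-negative cells, and in Siah2-/- at 18.2, 14.1, 36.1, 239, 195 and 24.3. Siah2-/- was more than 2-fold higher in 5 classes, and Treg, with 18 and 9 UMIs, lay the other way within counting error. The ratio was highest in CD45-negative cells, at 2.10 (1.59 to 2.60), then DCs at 1.8 (1.40 to 2.22), and lowest among the 5 in CD8 T cells at 1.01 (0.53 to 1.51). In macrophages it was 0.83 with the same lowest UMI count in both libraries or over all barcodes of at least 1000 UMIs. With gate minimums doubled it was 0.98 there, without cycling cells 0.965, and with marker-defined subsets weighted equally 0.89. In CD8 T cells it was 0.62 with thinning, 0.94 with gates doubled and 0.86 with cells weighted equally. In non-cycling CD8 T cells Atf3 was at 14.9 and 15.7 CPM, a ratio of 0.08 (-0.57 to 0.77), and in cycling ones at 5.93 and 21.6, a ratio of 1.87 (1.15 to 2.65).

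**Figure D2:**
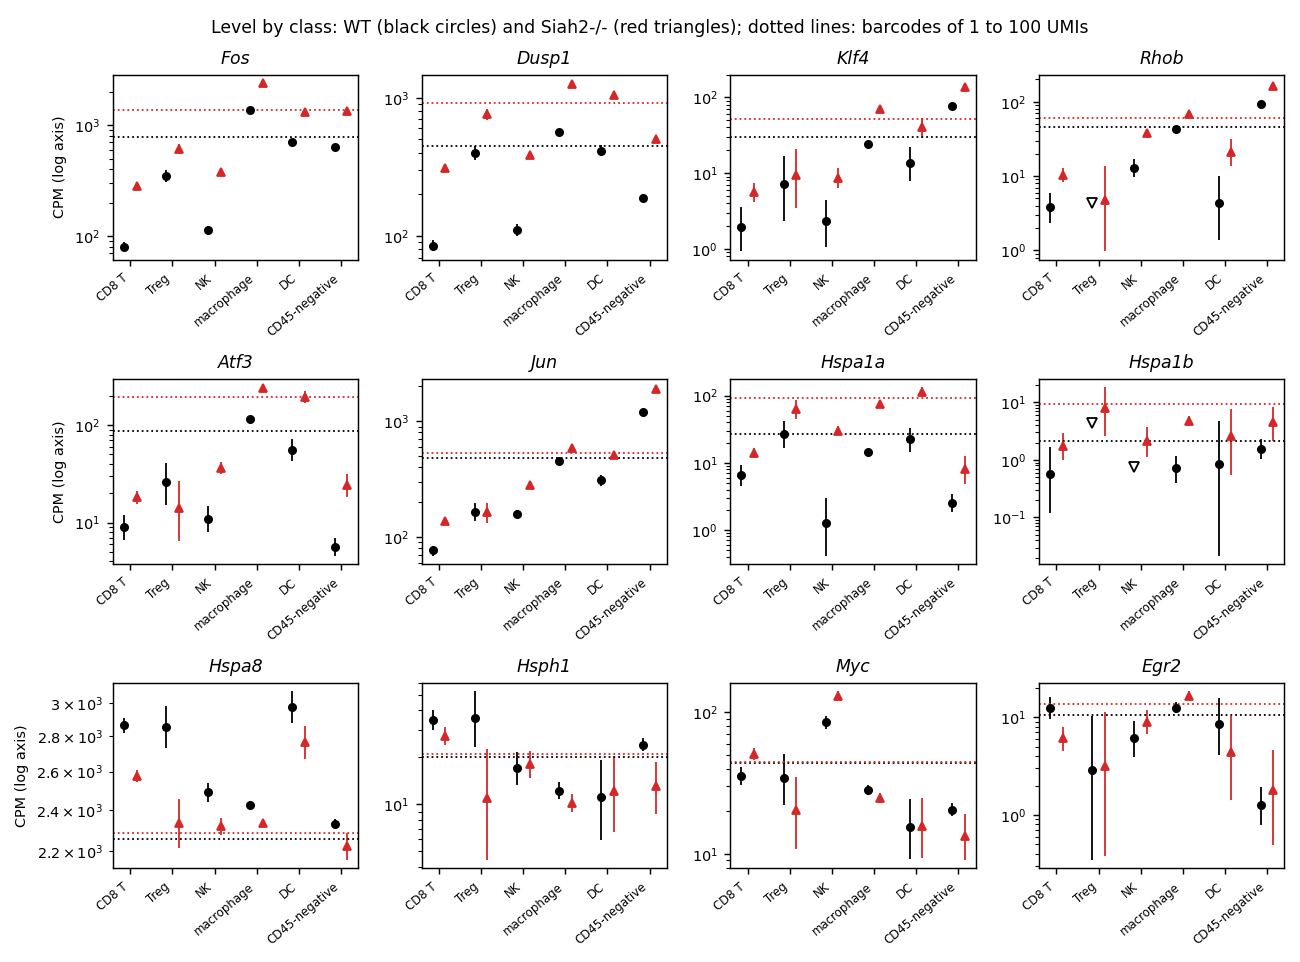
Levels of 12 members (CPM, log axis) in 6 classes of cells, WT as circles and Siah2-/- as triangles, with bars for 95% counting intervals, open downward triangles for the level of 3 counts where no UMI was found, and dotted lines for the level in barcodes of 1 to 100 UMIs. Fos and Dusp1 are higher in Siah2-/- in all 6 classes, and Hspa8 levels lie between 2223 and 2975 CPM in every class and library.

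Among the zinc finger factors, Klf4, a regulator of macrophage and epithelial differentiation, was at 1.93 CPM in WT CD8 T cells, 7.18 in Treg, 2.30 in NK cells, 24.5 in macrophages, 13.8 in DCs and 76.1 in CD45-negative cells, and in Siah2-/- at 5.63, 9.42, 8.67, 69.4, 40.2 and 139. All 6 classes were higher in Siah2-/-, although in Treg (5 and 6 UMIs) the intervals overlapped widely. Ratios were 1.92 (0.87 to 3.13) in NK cells, 1.55 (0.55 to 2.70) in CD8 T cells, 1.55 (0.70 to 2.47) in DCs, 1.5 (1.36 to 1.65) in macrophages and 0.86 (0.68 to 1.05) in CD45-negative cells. The CD8 T and NK cell values rest on 9 to 48 UMIs each, and RNA floating free in the suspension, estimated from genes a class should lack, could supply 88% of the WT CD8 T cell level.

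Klf6, a widely expressed relative, was higher in every class, from 0.69 in macrophages to 1.41 (1.25 to 1.58) in NK cells. Egr1, induced by serum response factor and ERK signaling, was higher in CD8 T cells (16.6 and 41.7 CPM, ratio 1.33, 0.99 to 1.69) and not in NK cells (19.4 and 18.2 CPM, -0.09, -0.53 to 0.36), the 2 intervals being apart. Egr2, which restrains T cell activation, went down in CD8 T cells from 12.5 to 6.10 CPM, a ratio of -1.04 (-1.59 to -0.49), and up in macrophages from 12.6 to 16.6, a ratio of 0.40 (0.17 to 0.63). In non-cycling CD8 T cells the Egr2 ratio was -1.62 (-2.39 to -0.86), and in cycling ones -0.57 (-1.41 to 0.25). Egr2 was the 1 member 2-fold lower in CD8 T cells and lay close to that limit: it was lower by less than 2-fold after centring on the median of all genes (-0.997), over all barcodes of at least 1000 UMIs (-0.745), without barcodes over 5% mitochondrial UMIs (-0.99) and without C1q-rich barcodes (-0.99).

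Myc, a growth regulator that answers mitogens with similar speed, was at 35.6 CPM in WT CD8 T cells, 34.5 in Treg, 85.3 in NK cells, 28.3 in macrophages, 15.5 in DCs and 20.6 in CD45-negative cells, and in Siah2-/- at 50.7, 20.4, 131, 24.9, 15.7 and 13.5. It was higher in CD8 T and NK cells, by 0.51 (0.26 to 0.77) and 0.62 (0.43 to 0.81), and lower in macrophages and CD45-negative cells, by -0.19 (-0.36 to -0.02) and -0.61 (-1.20 to -0.07). Treg and DCs lay within counting error. The median over classes was -0.08, the third lowest of the list.

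The nuclear receptors Nr4a1, Nr4a2 and Nr4a3, which antigen receptor signals induce in lymphocytes, were not higher together in each class. Nr4a1 was 2-fold higher in CD8 T cells (1.13), NK cells (1.60, 1.29 to 1.93) and macrophages (1.16), and in Treg it was at 109 and 118 CPM, a ratio of 0.11 (-0.37 to 0.59). Nr4a2 was higher in macrophages (1.25, from 14.8 and 35.2 CPM) and NK cells (1.03), and slightly lower in CD8 T cells, from 102 to 89.2 CPM, at -0.19 (-0.36 to -0.03). Nr4a3 had its largest ratios in macrophages (1.99, from 21 and 85 UMIs) and DCs (1.64, 1.05 to 2.26). The DC class also differed in makeup between libraries: the maturation genes Ccr7 and Fscn1 were at 1194 and 1632 CPM in WT and 2445 and 2530 in Siah2-/-, and Xcr1, a marker of cross-presenting DCs, at 115 and 24.5. The part of that shift in the DC ratios of any member was not tested.

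Dusp1, the phosphatase that switches off p38 and JNK, was higher in all 6 classes. Its levels were 85.3 CPM in WT CD8 T cells, 399 in Treg, 111 in NK cells, 565 in macrophages, 414 in DCs and 188 in CD45-negative cells, and in Siah2-/- 313, 757, 382, 1263, 1048 and 503. Each Siah2-/- level stood above its WT level with intervals apart, and 5 of 6 classes passed 2-fold. Ratios were 1.79 (1.64 to 1.94) in NK cells, 1.88 (1.73 to 2.02) in CD8 T cells, 1.42 (1.32 to 1.52) in CD45-negative cells, 1.34 (1.19 to 1.5) in DCs, 1.16 (1.13 to 1.19) in macrophages and 0.92 (0.71 to 1.14) in Treg. The CD45-negative ratio was 0.73 without cycling cells and 0.78 with cells thinned to 4000 UMIs. The macrophage ratio was 0.94 over all barcodes of at least 1000 UMIs and 0.97 with marker-defined subsets weighted equally. The order of the classes was the same in both libraries, from macrophages down to CD8 T cells, with WT DCs and Treg not differing beyond counting error.

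Of the other phosphatases that act on MAP kinases, Dusp2 was 2-fold higher in Treg (1.06, 0.72 to 1.41) and level in NK cells, its highest class, at 759 and 773 CPM (0.02, -0.04 to 0.09). Its Treg ratio was 0.77 with the same lowest UMI count in both libraries and 0.66 over all barcodes of at least 1000 UMIs. With gate minimums doubled the Treg ratio was 0.98. Dusp5, which acts on ERK, was higher by 1.58 (1.33 to 1.84) in macrophages, and in CD45-negative cells stood at 8.70 and 8.10 CPM. Zfp36, which degrades mRNAs of inflammatory cytokines, was higher in all 6 classes, between 0.49 in Treg (-0.16 without cycling cells) and 0.90 in NK cells. Its relative Zfp36l1 reached 0.94 in NK cells and 0.06 (-0.10 to 0.21) in CD45-negative cells.

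CD45-negative cells also stood apart for Nfkbia, the inhibitor of NF-κB, at 211 and 215 CPM, and for Socs3, the inhibitor of cytokine receptor signaling, at 155 and 162 CPM. These pooled values hold opposite directions: in cells with at least 3 UMIs of Hmga2, a gene high in this class, Nfkbia was at 0.25 (0.07 to 0.43) and Socs3 at 0.37 (0.15 to 0.59), and in those with fewer they were at -0.31 (-0.54 to -0.08) and -0.30 (-0.55 to -0.07). Zfp36l1 was likewise at 0.60 and -0.54. In the immune classes Nfkbia was higher by 0.36 to 0.70 and Socs3 by 0.40 (macrophages) to 1.25 (NK cells). Gadd45b, a stress-inducible MAP kinase activator, had its largest ratio in NK cells, from 12.5 to 39.6 CPM, at 1.66 (1.21 to 2.14), with 0.74 (0.51 to 0.98) in CD8 T cells. The 2 intervals do not overlap, and the difference could not be set against replicates.

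Rhob, a small GTPase induced by growth factors and stress, was at 3.85 CPM in WT CD8 T cells, 0 in Treg, 13.0 in NK cells, 43.0 in macrophages, 4.30 in DCs and 92.7 in CD45-negative cells, and in Siah2-/- at 10.4, 4.71, 37.9, 69.2, 21.0 and 161. It was higher in all 5 classes that passed the filter, with intervals apart in each. Ratios were 2.29 (0.87 to 4.03) in DCs from 5 and 24 UMIs, 1.54 (1.09 to 2.01) in NK cells, 1.44 (0.73 to 2.22) in CD8 T cells, 0.80 (0.63 to 0.96) in CD45-negative cells and 0.69 (0.57 to 0.81) in macrophages. In Treg no WT UMI was seen, which at 3 counts allows up to 4.31 CPM, and Siah2-/- had 3 UMIs.

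Btg1 and Btg2, which restrain proliferation, were higher in all classes: Btg1 by 0.66 (DCs) to 1.17 (CD8 T cells) and Btg2 by 0.37 (DCs) to 1.17 (CD8 T cells). Ier3, a survival factor that NF-κB induces, was highest in macrophages, at 180.1 and 498.5 CPM, a ratio of 1.47 (1.42 to 1.52), against 0.79 (0.49 to 1.11) in CD8 T cells. Ier2 was higher by 0.64 to 0.86 in 5 classes, and Ier5 by 0.29 to 0.59. In Treg, Ier2 and Ier5 were within counting error, at 0.12 and -0.06.

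The heat shock members did not move as 1 group. Hspa1a was at 6.55 CPM in WT CD8 T cells, 27.3 in Treg, 1.28 in NK cells, 14.2 in macrophages, 22.4 in DCs and 2.54 in CD45-negative cells, and in Siah2-/- at 14.1, 62.8, 30.2, 74.0, 113 and 8.10. Every class was at least 2-fold higher in Siah2-/-, although with free RNA subtracted the log2 ratio was 0.85 in CD8 T cells and 0.96 in CD45-negative cells. The CD8 T cell ratio was also 0.58 with the same lowest UMI count in both libraries and 0.83 with gate minimums doubled. With cells thinned to 4000 UMIs it was 0.75, and the Treg ratio 0.86. In NK cells 5 UMIs in WT stood against 167, a ratio of 4.56 (3.31 to 6.2) or 23.6-fold, and macrophages gave 2.38 (2.20 to 2.56) and DCs 2.33 (1.72 to 3.0). CD45-negative cells gave 1.68 (0.79 to 2.5), from 42 and 18 UMIs. Single cells weighed heavily elsewhere: 1 cell held 94.7% of the WT and another 80.0% of the Siah2-/- UMIs in Treg (ratio 1.20, and -3.53 without cycling cells), and 1 cell held 55.9% of the WT UMIs in CD8 T cells (ratio 1.10). In non-cycling CD8 T cells 1 UMI in WT stood against 69, a ratio of 4.67 (2.15 to 10.00), and in cycling ones 33 against 51, a ratio of 0.53 (-0.13 to 1.21).

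Hspa1b, the neighbouring copy, lies at chr17:34956436-34959238 and Hspa1a at chr17:34969190-34972156 (GRCm38, both on the minus strand). The printed upstream stretches differ in 3 of 250 bases. Of the 98-base windows of their transcripts, 47.5% of those of Hspa1a occur in Hspa1b, but 0 of 403 in the last 500 bases, where reads of a 3′ library gather, so the copies can be told apart there and counts from reads further upstream are uncertain. Hspa1b counts were low: 3 and 15 UMIs in CD8 T cells (1.61, -0.21 to 4.04), 0 and 12 in NK cells, 15 and 103 in macrophages (2.76, 1.97 to 3.65), 1 and 3 in DCs, 0 and 5 in Treg, and 26 and 10 in CD45-negative cells (1.52, 0.30 to 2.62). These are 0.578 and 1.76 CPM in CD8 T cells, 0 and 2.17 in NK cells, 0.712 and 4.81 in macrophages, 0.860 and 2.62 in DCs, 0 and 7.85 in Treg, and 1.57 and 4.50 in CD45-negative cells. In NK cells Hspa1b was at least 2.83-fold higher against a limit of 3 counts in WT, and without the 1% of NK cells with most UMIs of it both libraries were at that limit. The direction was the same as for Hspa1a wherever the filter was passed.

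Hspa8, the constitutive Hsp70, was at 2864 CPM in WT CD8 T cells, 2857 in Treg, 2489 in NK cells, 2424 in macrophages, 2975 in DCs and 2329 in CD45-negative cells, and in Siah2-/- at 2575, 2332, 2318, 2334, 2765 and 2223. Every class was lower in Siah2-/-, by small amounts: -0.29 (-0.39 to -0.20) in Treg, -0.15 in CD8 T cells, -0.11 in DCs, -0.10 in NK cells, -0.07 in CD45-negative cells and -0.05 (-0.07 to -0.04) in macrophages. Hsph1, an Hsp110 that recharges Hsp70, was at 34.9, 35.9, 17.1, 12.2, 11.2 and 24.2 CPM in WT CD8 T cells, Treg, NK cells, macrophages, DCs and CD45-negative cells, and at 27.6, 11.0, 18.1, 10.2, 12.2 and 13.1 in Siah2-/-. Its levels were lower beyond counting error in Treg (-1.71, -3.16 to -0.46), CD45-negative cells (-0.89, -1.49 to -0.34) and CD8 T cells (-0.34, -0.62 to -0.05), and within it in the others. In CD45-negative cells the ratio was -1.32 (-2.18 to -0.58) where 3 or more UMIs of Hmga2 were found, -0.050 (-0.97 to 0.77) where fewer were, and 0.21 (-0.76 to 1.06) without cycling cells. Dnajb1, an Hsp40 co-chaperone, was higher in NK cells (0.47, 0.20 to 0.75) and macrophages (0.22, 0.09 to 0.36), and within counting error in the other 4 classes. Thus the 2 inducible Hsp70 genes were higher, and the Hsp110 and constitutive Hsp70 genes were not.

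Genes of the same programmes outside the list were taken from 2 fixed lists, of 49 other immediate early or growth factor induced genes and 34 other chaperone genes. The other immediate early genes had medians of 0.86 in CD8 T cells, 0.90 in Treg, 0.69 in NK cells, 0.77 in macrophages, 0.68 in DCs and 0.25 in CD45-negative cells, with 13 of 43, 15 of 37, 16 of 42, 15 of 44, 11 of 37 and 11 of 46 at least 2-fold higher, and 1, 0, 0, 0, 0 and 3 lower. Of all genes 5.65%, 7.37%, 6.93%, 6.36%, 7.72% and 6.77% were 2-fold higher, and 2.89%, 9.33%, 1.91%, 4.39%, 6.00% and 5.30% lower. Klf2, a factor of resting lymphocytes, was 2-fold higher in all 6 classes, from 1.18 in macrophages to 2.69 in NK cells, and Cebpb, a factor of myeloid activation, in 5, up to 2.11 in NK cells. The NF-κB brake Tnfaip3 was 2-fold higher in the 5 immune classes, 1.16 to 1.81. The growth arrest gene Gadd45a reached 2.31 in NK cells and was at -0.93 in CD45-negative cells.

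The other chaperone genes had medians of -0.19 in CD8 T cells, -0.28 in Treg, 0.00 in NK cells, -0.17 in macrophages, -0.02 in DCs and -0.28 in CD45-negative cells. At most 3 of them were 2-fold higher in any class, 1 of 33, 0 of 28, 1 of 34, 1 of 34, 3 of 32 and 1 of 33 in that order. Of all genes 5.65%, 7.37%, 6.93%, 6.36%, 7.72% and 6.77% were. Those 2-fold lower numbered 2, 0, 1, 0, 0 and 0, beside 2.89%, 9.33%, 1.91%, 4.39%, 6.00% and 5.30% of all genes. Of the 6 that passed 2-fold somewhere, Hsf2, a heat shock factor, was higher in NK cells (2.59), DCs (1.77) and CD45-negative cells (1.46). Hspb1, a small heat shock protein, was higher in macrophages (1.44) and Hspa13 and Serpinh1 in DCs (1.22 and 1.44), while Serpinh1 was lower in CD8 T cells (-1.17) and NK cells (-1.12). Dnajb9 passed 2-fold in CD8 T cells (1.01) and Cryab was lower there (-2.13). The chaperone list as counted therefore did not share the higher level of Hspa1a and Hspa1b.

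**Figure D3:**
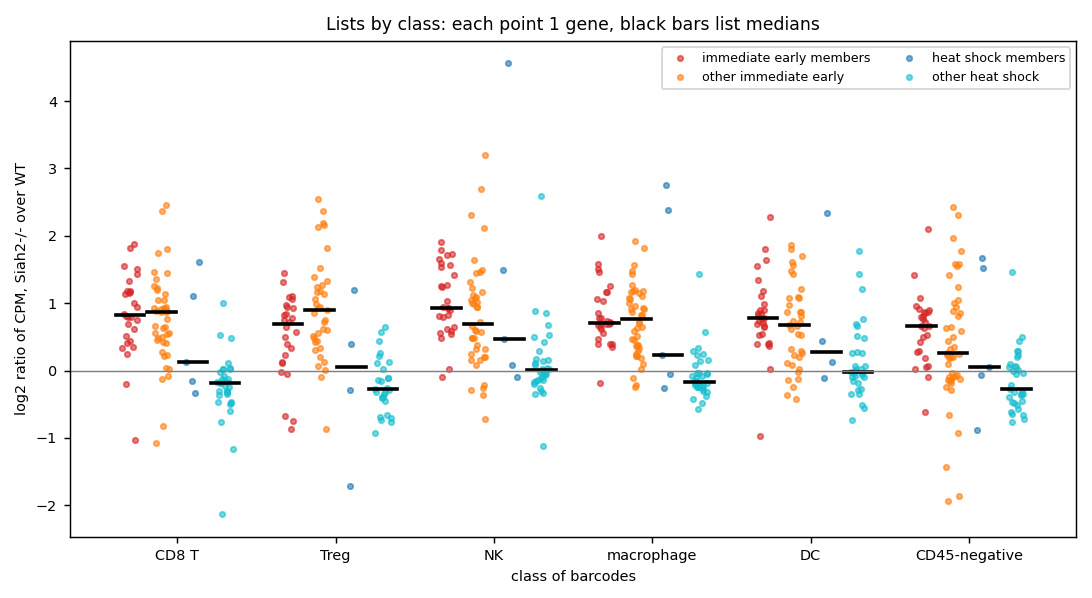
Log2 ratio of Siah2-/- over WT for each gene (points) of 4 lists in 6 classes of cells, with medians as lines. Both immediate early lists lie above 0 in every class, with medians of 0.25 to 0.93, and the other chaperone genes have medians between -0.28 and 0.00.

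Droplets without a cell gave a further reference. Barcodes of 1 to 100 UMIs numbered 582342 in WT and 571512 in Siah2-/-, with 5118113 and 6453274 UMIs, and hold RNA that floated free in the suspension. Of the 33 members with 10 UMIs there, 6 were 2-fold or more higher in Siah2-/- and 0 lower, against 4.14% and 4.47% of all 12516 genes, and 28 were higher beyond counting error, against 14.2% of all genes. Their median was 0.66, against 0.02 for all genes. Fos went from 789 to 1385 CPM in these barcodes (0.81, 0.76 to 0.87), Dusp1 from 447 to 912 (1.03, 0.96 to 1.10), Atf3 from 87.3 to 196 (1.16), Hspa1a from 27.0 to 91.3 (1.76, 1.49 to 2.04) and Hspa1b from 2.15 to 9.30 (2.11, 1.17 to 3.19), from 11 and 60 UMIs. In barcodes of more than 100 and up to 500 UMIs the Hspa1b ratio was -0.53. Hspa8 (0.02), Hsph1 (0.07) and Myc (0.01) lay at 0 within counting error there. These had the 3 lowest medians over classes of cells. All 11 members that were higher in every class of cells were higher in these barcodes too.

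Some members had ratios in cells well above those in the free RNA. Free RNA mixes all classes, and CD45-negative cells were 14.5% of WT and 1.58% of Siah2-/- cells. In WT cells Jun, Rhob, Egr1 and Klf4 were highest in that class. The part of its size in the free RNA ratios was not tested. Rhob was at 0.39 (0.15 to 0.63) in the barcodes of 1 to 100 UMIs and at 1.44 to 2.29 in CD8 T cells, NK cells and DCs; Jun was at 0.13 (0.05 to 0.20) there and at 0.67 to 0.84 in 4 classes of cells. Socs3 was at 0.44 there and at 1.10 to 1.25 in the 3 lymphocyte classes, and Egr1 at 0.35 against 1.33 in CD8 T cells. Ier5 was at 0.70 in the free RNA and at most 0.59 in the 6 pooled classes. Ier3 was at 1.58 (1.45 to 1.73) in the free RNA and at most 1.47 in the pooled classes, but at 1.61 (1.3 to 1.92) in CD45-negative cells with 3 or more Hmga2 UMIs and at 1.70 (1.57 to 1.83) in barcodes with T cell and macrophage markers.

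**Figure D4:**
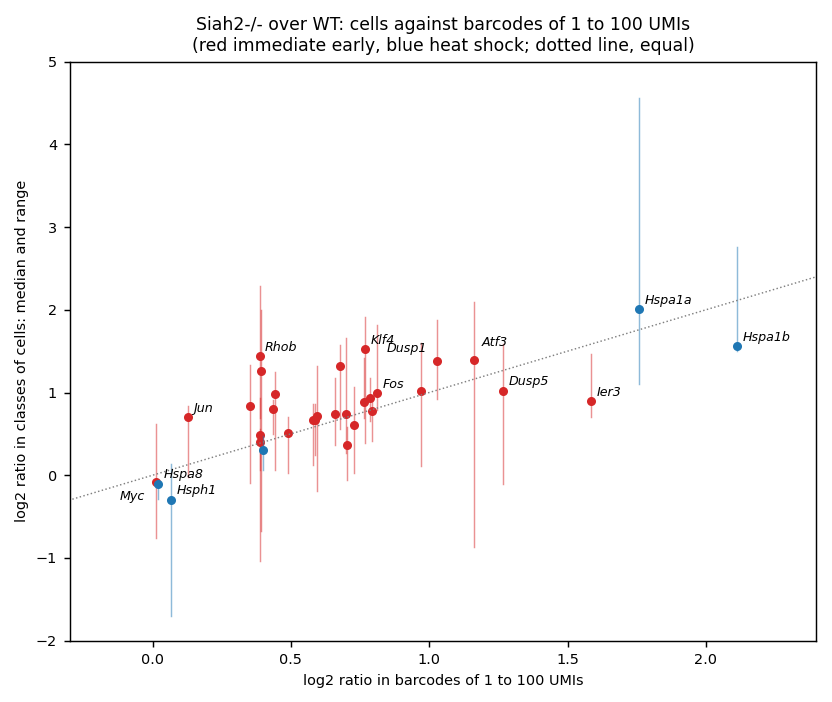
For each member, the log2 ratio of Siah2-/- over WT in barcodes of 1 to 100 UMIs (x axis) against the median (point) and range (bar) over the classes of cells (y axis), with the line of equal values. Hspa1a and Hspa1b lie at the upper right, Hspa8, Hsph1 and Myc near 0 on both axes, and Rhob and Klf4 well above the line.

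The free RNA can also be read as a share of the cells' own UMIs. From genes a class should lack (C1qa, C1qb, C1qc and Lyz2 in lymphocytes and CD45-negative cells, Gzma, Nkg7 and Ms4a4b in macrophages and DCs), that share was 5.58% in WT and 5.48% in Siah2-/- CD8 T cells, 17.3% and 6.82% in Treg, 5.14% and 6.71% in NK cells, 2.48% and 5.34% in macrophages, 2.26% and 4.69% in DCs, and 2.37% and 4.93% in CD45-negative cells. The lymphocyte shares rest in part on a few barcodes rich in C1q: 15 of 460 WT and 8 of 849 Siah2-/- CD8 T cells, and 3 of 63 and 0 of 77 Treg, held 10 or more C1q UMIs. Without such barcodes, an alternative chosen after seeing the data, the share was 3.35% and 5.09% in CD8 T cells, 3.15% and 6.82% in Treg, and 2.91% and 4.85% in NK cells, lower in WT than in Siah2-/- as in the other 3 classes. With these barcodes kept, free RNA could supply 44.0 of the 80.1 CPM of Fos in WT CD8 T cells (55%) and 76.0 of 282 in Siah2-/- (26.9%). With it subtracted the Fos ratio in CD8 T cells was 2.52 and the Dusp1 ratio 2.12, and without the C1q-rich barcodes they were 2.16 and 1.98, beside 1.91 and 1.90 before subtraction. For Treg, the subtracted ratios were 1.13 for Fos and 0.94 for Dusp1, and 0.98 for both without those barcodes. Other ratios shrank: Ier3 in NK cells went from 1.27 to 0.37, in CD8 T cells from 0.79 to 0.40 and in DCs from 0.71 to 0.23, and Atf3 in CD8 T cells from 1.01 to 0.84. Hspa1a shrank from 1.10 to 0.85 in CD8 T cells and from 1.68 to 0.96 in CD45-negative cells, where free RNA could supply 35.6% and 55.6% of the Siah2-/- level. In WT NK cells it came to 108% of the Hspa1a level, which rested on 5 UMIs. For Dusp2 in CD45-negative cells it came to 109% of the Siah2-/- level, so that nothing was left of it in Siah2-/- after subtraction, and the ratio of 0.53 does not stand.

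Shares of cells with a UMI were compared after every cell had been thinned to 4000 UMIs, which left out 0 cells. Fos was found in 17.4% (14.0 to 21.2%) of WT and 51.4% (47.9 to 54.8%) of Siah2-/- CD8 T cells (39.8% and 74.0% before thinning), and in 23.0% and 60.0% of NK cells. C1qb, a macrophage gene that CD8 T cells should lack, was found in 24.1% and 31.7% of the same CD8 T cells and 19.4% and 28.2% of NK cells. The WT CD8 T cell share of Fos was below the share of C1qb and the Siah2-/- share above it. The 2 genes differ in level (C1qb was at 98.4 and 87.8 CPM in these cells), and no expression is read from the WT share alone. Median depths before thinning were 9733 and 8316 UMIs in CD8 T cells.

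For Dusp1 the shares were 21.3% and 54.0% in CD8 T cells, 24.6% and 61.9% in NK cells, and 66.5% and 87.3% in macrophages. Hspa1a stayed rare: 3.48% of WT and 13.5% of Siah2-/- macrophages held a UMI, 3.0% and 13.9% of DCs, and 0.785% and 4.36% of NK cells. Fos was in 90.6% of WT and 97.5% of Siah2-/- macrophages.

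Within macrophages Fos was higher in Siah2-/- in each marker-defined subset described here, and the sizes of the subsets differed greatly between libraries. Monocyte-like macrophages (202 and 342 cells) went from 1927 to 4053 CPM (1.07, 1.02 to 1.13). Resident-type macrophages (335 and 34 cells) went from 1088 to 1532 (0.49), Mgl2-type ones from 1240 to 1788 (0.53), interferon-type ones from 1188 to 2012 (0.76) and macrophages of no subset from 1483 to 2292 (0.63). With each subset given equal weight in both libraries the macrophage ratio was 0.69 for Fos, 0.97 for Dusp1 and 2.63 for Hspa1a. Of the 33 members, 24 moved by more than their counting interval under this weighting and 9 by less: Egr2, for instance, was then at 0.04 in place of 0.40, and Nr4a2 at 0.84 in place of 1.25. The part of subset sizes in the macrophage ratios was not tested further.

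Among CD8 T cells, Fos went from 77.3 to 259 CPM in cycling (1.74) and from 85.3 to 299.6 in non-cycling cells (1.81). CD45-negative cells with at least 3 UMIs of Hmga2 (349 and 50 cells) had Fos at 434 and 1315 CPM (1.60, 1.52 to 1.68), and those with fewer (306 and 38 cells) at 978 and 1383 (0.50, 0.41 to 0.59). Jun followed the same order, 0.93 and 0.32. CD4 T cells without Foxp3 were too few in WT (12, against 269) to enter the classes; their Fos was at 604 and 600.2 CPM (-0.01, -0.36 to 0.37) and their Junb at 879 and 2484 (1.5, 1.21 to 1.8). Barcodes with both T cell and macrophage markers (352 and 400), which may be doublets, had Fos at 888 and 1545 CPM.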

How the data were processed

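The authors counted UMIs per gene and barcode with Cell Ranger (version not given in the sources used here) on mm10/GRCm38 and deposited the raw counts as unfiltered matrices and as a table of kept cells, from which cells at both extremes of gene number and cells over 10% mitochondrial transcripts had been removed. A second deposited table holds natural log values per cell, scaled by the authors, and only its header was used, as a list of cells kept in both tables. Its batch alignment left the raw counts untouched. For this report UMIs were summed per gene, class and library and divided by the class total (CPM). The ratio of Siah2-/- over WT has an exact conditional Poisson interval (Clopper-Pearson, 95%), which covers counting error only. With no UMI in 1 library, 3 counts were put in its place. Genes needed 10 UMIs over both libraries in a class, and 2-fold was the limit counted. Barcodes were gated on marker UMIs: for instance CD8 T cells needed 5 UMIs of CD3 genes and 3 of Cd8a and Cd8b1. No doublet caller was run; barcodes with T cell and macrophage markers were kept apart, and 15 of 460 WT and 8 of 849 Siah2-/- CD8 T cells, 3 of 63 and 0 of 77 Treg, and 6 of 382 and 6 of 620 NK cells held 10 or more C1q UMIs. With 1 library per genotype there is no test, p-value or replicate number, and no cell was treated as a replicate. The code was tested on simulated data. Python 3.11.15, numpy 2.4.6, scipy 1.17.1 and pandas 2.3.3 were used.

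Members and lists were chosen with earlier results of these data known. All members are described; values in every class and library are printed for those with the 6 largest and 3 smallest median ratios, for Hspa1a, Hspa1b and Jun, and, chosen after its values were seen, for Fos. Genes of the other lists are named only where past 2-fold in at least 1 class. Alternatives covered the UMI totals, centring, filters, gates, cycling cells, free RNA, cell weights, leading cells, depth and mitochondrial share. Leaving out lymphoid barcodes with 10 or more C1q UMIs, alone or with free RNA subtracted, was added after seeing the data. A further marker-defined subset of macrophages is not reported here.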

Additional observations from a re-analysis of the deposited data

Results flagged for a closer look

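Egr2 had opposite directions in 2 classes of cells: its log2 ratio of Siah2-/- over WT was 0.40 in macrophages and -1.04 in CD8 T cells. Nr4a2 was at 1.25 in macrophages and -0.19 in CD8 T cells. Myc was at 0.62 in NK cells and -0.61 in CD45-negative cells. Each pair lies on opposite sides of 0 beyond counting error in 1 library per genotype, and the difference between the classes was not tested. The macrophage ratio of Egr2 was 0.04 and that of Nr4a2 0.84 with the marker-defined subsets given equal weight in both libraries. The CD45-negative value of Myc rests on 341 and 30 UMIs.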

How the results depend on the processing

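Of 2958 single gene ratios under the alternatives, 2576 moved by less than their counting interval, 371 moved by more and 11 changed sign. Some ratios past 2-fold fell within it under an alternative. Nr4a1, for instance, was at 0.74 in CD8 T cells without cycling cells and at 0.78 in macrophages with the same lowest UMI count. Medians of the members stayed above 0 in every class and alternative, and these values moved. The macrophage median was 0.62 with the same lowest UMI count in both libraries, 0.62 with gate minimums doubled, 0.78 with cells thinned to 4000 UMIs and 0.78 with cells weighted equally. The CD45-negative median was 0.88 over all barcodes of at least 1000 UMIs and 0.39 without cycling cells. The count of members higher in every class was 18 over all barcodes of at least 1000 UMIs and 5 without cycling cells, and the count lower in every class was 0 under these 2, under thinning and with cells weighted equally. With all barcodes of at least 1000 UMIs, 7 members were 2-fold higher in macrophages and 10 in CD45-negative cells, and without cycling cells 9 in CD8 T and 3 in CD45-negative cells. Thinning left 2 in CD45-negative cells. Leaving out the 1% of cells with most UMIs of a gene gave 10 in Treg, a setting for which no share of all genes is given. At 1.5-fold, 22 members were higher in CD8 T cells (12.3% of all genes), 15 in Treg (17.5%), 25 in NK cells (15.4%), 23 in macrophages (12.2%), 21 in DCs (17.7%) and 18 in CD45-negative cells (14.0%), and 4 were lower in Treg (19.2%), 1 in DCs (14.4%) and 2 in CD45-negative cells (12.3%).

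Counts of members 2-fold lower were small throughout, and free RNA subtracted gave the same such counts without C1q-rich lymphoid barcodes. In CD8 T cells the count was 0 after centring, over all barcodes of at least 1000 UMIs, without barcodes over 5% mitochondrial UMIs and without C1q-bearing lymphoid barcodes, and 2 with no filter or without the leading 1% of cells. The shares of all genes were 2.56%, 1.96%, 3.08% and 2.79% in that order, and 12.1% with no filter. In Treg it was 0 at 50 UMIs, 3 with gates doubled, 5 without cycling cells, and 2 with thinning, free RNA subtracted or cells weighted equally. From gates doubled on, the Treg shares of all genes were 9.97%, 9.33%, 10.4%, 10.3% and 11.2% in that order. The share at 50 UMIs was smaller than each of these. In DCs it was 1 without mitochondrial, ribosomal and haemoglobin genes in the totals, after centring, without cycling cells, with free RNA subtracted, with cells weighted equally and without the leading 1% of cells. In that order, up to cells weighted equally, the shares of all genes were 7.28%, 7.22%, 5.14%, 7.18% and 7.06%. In NK cells it was 1 with no filter, beside 11.2% of all genes. In CD45-negative cells it was 1 with free RNA subtracted, beside 4.38%, or without the leading 1% of cells. No share of all genes is given for leaving out those leading cells in any class.

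Signs turned without cycling cells for Fos in Treg (-0.085), Zfp36 in Treg (-0.16), Hspa1a in Treg (-3.53), Nr4a1 in CD45-negative cells (-0.35) and Hsph1 in CD45-negative cells (0.21). They also turned for Egr1 in DCs with gates doubled (-0.0086), Dusp2 in CD45-negative cells with free RNA subtracted, C1q-rich lymphoid barcodes kept or not (-2.33, Siah2-/- at the limit of 3 counts) and Hspa1b in NK cells without the leading 1% of cells (-0.50, both libraries at the limit of 3 counts). In droplets without a cell, Jun was at -0.025 in barcodes of 1 to 50 UMIs and Hspa1b at -0.53 in those of more than 100 and up to 500. There the median of the members was 0.49 and 0.91, and 14 members were 2-fold higher in the latter. No share or median of all genes is given for either range, so these values are not read further. The cause of these changes was not tested. No paired analysis was possible because each genotype has 1 library and the result comes from no test. Counting intervals widen where a class holds few UMIs of a gene.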

Other observations

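Other genes had a larger smallest ratio over the classes than the members. Ranked by their smallest ratio over the 6 classes among 7102 genes that passed the filter in all of them, Hspa1a was 22nd, Dusp1 35th and Fos 49th. Rbm45, an RNA-binding protein gene, was first, with ratios of 1.84 to 4.22 in cells and 1.8 in barcodes of 1 to 100 UMIs. Cxcl2, a neutrophil chemokine of myeloid cells, ranked at 4, with 1.5 to 4.05 in cells and 1.59 in those barcodes. Rps27rt (1.60 to 2.10), a ribosomal protein retrogene, and Rpl36-ps3, a pseudogene, were also among the first 10, and their counts are uncertain because reads may be shared with a near-identical gene.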
